A study of Mus musculus with 4 samples.

Results

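Semaphorins, plexins and neuropilins are a ligand and receptor system of axon guidance. The members were all genes whose mouse symbol is Sema3 to Sema7 with a letter from a to g, Plxna to Plxnd with a digit, Nrp1 or Nrp2. The counts table held 31 such genes among 78334 gene identifiers, of which 20 were semaphorins, 9 plexins and 2 neuropilins. The cells were retinal ganglion cells, which send their axons from the eye to the brain, from wild-type mice of both sexes, taken 2 weeks after optic nerve crush. In the tested eyes an adeno-associated virus of serotype 2 (AAV2) expressed an anti-miR132-3p shRNA with an mCherry reporter, and in the control eyes the same type of virus expressed a scramble shRNA with mCherry. Per the labels' protocols, 2 µl of virus per eye was injected at 8 weeks of age, 2 weeks before the crush, and about 40% of ganglion cells were transduced. Cells from 10 pooled retinas per condition were panned on Thy1 and sorted for mCherry, and about 5000 cells went into each of 2 libraries per group. All groups therefore share the crush, the virus and the reporter, and no uninjured or uninjected cells were compared.

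Semaphorins are secreted or membrane-bound ligands that steer growing axons, most often by making the growth cone collapse. Plexins are the receptors that carry the signal into the cell through a GTPase-activating domain. Most class 3 semaphorins, which are secreted, bind plexins together with a neuropilin, whereas the other classes bind plexins directly. In the retina, class 5 and class 6 semaphorins and A-type plexins are known to sort neurites into layers during development, and Sema3a acts on injured ganglion cell axons and is studied as a signal of ganglion cell death after nerve injury.

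The sequences below show what the vectors were built against, since the comparison rests on them. The mature miR-132-3p is given from RefSeq (GRCm38.p6, chr11:75173723-75173744, plus strand) with its seed, bases 2 to 8, in capitals. In the anti-miR132-3p insert, the capitals mark the stretch that pairs with the seed. The scramble insert holds no such stretch on either strand.
mmu-miR-132-3p: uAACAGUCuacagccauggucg
anti-miR132-3p shRNA insert: cgaccatggctgtaGACTGTTa
scramble shRNA insert: tcgagggcgacttaaccttagg
A match to the seed in an annotated 3' UTR, the place where microRNAs usually bind, was found in 6 of the 31 members, 19.4%. Of the 10400 tested genes with an annotated 3' UTR, 15.1% had a match. The 31 include 13 members that were not tested, so the shares are of unlike sets. The match searched was GACTGTT, alone (7mer-m8) or followed by A (8mer), in any protein-coding transcript of GENCODE M21. The members with a match were Sema4g, Sema5a, Sema5b, Sema6a, Plxnd1 and Nrp2, of which Plxnd1 was not tested. The 2 members with an 8mer are shown together with the neuropilin site. Capitals mark the match.
Sema4g: ctcttgggtgaggatGACTGTTA
Sema5a: cttggtaaacttgcaGACTGTTA
Nrp2: ccaccagtatgtccaGACTGTTg
A match describes these letters and does not show that the site is used. The microRNA genes Mir132 and Mir212 were at 0 counts throughout, and their host transcript was not examined. Polyadenylated RNA does not measure mature microRNA, so the knockdown itself cannot be checked here.

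The anti-miR132-3p libraries totalled 1732416 and 1731199 counts, and the scramble libraries 1845090 and 1846637. The scramble columns are named mCherry, which both vectors express, and were assigned by exclusion, so every direction below rests on that assignment. Within a group, the 2 libraries were as close as random sampling of reads would make them, with a chi-square per degree of freedom of 1.00 for the anti-miR132-3p pair (p = 0.49, chi-square test over genes) and 1.02 for the scramble pair (p = 0.095). Across groups it was 4.01 to 4.03. A pair is treated here as 1 sample. With n = 1 per group, there is no SD to give, and differences have no replicate check. Folds are ratios of counts summed over a pair, in CPM (counts scaled to library size by TMM), with exact 95% intervals for counting error alone. Every p-value below is a statement about reads of the sequenced libraries and not about the conditions. A count of 3 in a library corresponds to 1.64 to 1.72 CPM.

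Marker genes of ganglion cells, among them Nefl and Slc17a6, were present at a summed 2294 CPM against 2131 CPM with the scramble shRNA, with 0 of 14 at 0 counts. Amacrine markers were about as abundant, at 2929 against 2754 CPM, although Gad1, Slc32a1 and Tfap2b were at 0 and Pax6, which ganglion cells also express, held most of the sum. Müller glia and astrocyte markers were at 2323 against 1780 CPM, of which Dkk3 held 68.7% and 60.7%. Rod and cone markers were at 17.7 against 97.0 CPM, with Gnat1 and Rcvrn at 0. Microglia and leukocyte markers were at 110 against 62.3 CPM, with Itgam and Trem2 at 0 and Cd74 at 126 counts against 5. Endothelial and mural markers were at 41.5 against 39.4 CPM, with Cdh5, Cldn5, Tie1 and Cspg4 at 0, and oligodendrocyte markers at 40.3 against 33.6 CPM, with Olig1, Olig2 and Sox10 at 0. Bipolar markers were at 117 against 103 CPM with Grm6 at 0, and horizontal cell markers at 82.7 against 102 CPM with Lhx1 at 0. In a bulk sample, fewer cells of a type and less RNA per cell cannot be told apart, and the part of these other cells in the values below was not tested.

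The system as a whole was expressed at a low level, with 0.0590% to 0.0764% of the counts of a library. Of 31 members, 30 had at least 1 count, 21 had at least 20 counts over the 4 libraries and 18 passed the filter on low counts and were tested. With edgeR's quasi-likelihood test at a Benjamini-Hochberg adjusted p under 0.05, 5 of the 18 were called higher with the anti-miR132-3p shRNA (27.8%) and 1 lower (5.56%), beside 13.5% and 10.4% of all 11427 tested genes. The members called higher were Sema4a, Sema4d, Sema6a, Plxna1 and Plxna4, and the member called lower was Sema3c. Both anti-miR132-3p libraries lay above both scramble libraries in 10 of the 18 tested members, beside 31.3% of tested genes, and below in 1, beside 30.6%. The median log2 fold change of the tested members was 0.43, against -0.0030 for all tested genes. With a correction for GC content and transcript length, the median of all tested genes was 0.030, and that of the members was not computed. The correction moved Sema4a from 1.31 to 1.05, Sema4d from 1.04 to 0.82 and Plxna4 from 1.02 to 0.79. Plxna1, Plxnb2, Nrp2, Plxnc1 and Sema4g also moved down, to 0.47, 0.38, 0.32, 0.27 and 0.23. So did Plxna2, Plxna3, Sema3b, Sema5a and Sema5b, to -0.12, -0.30, -0.043, -0.088 and -0.28. Values of Nrp1, Sema3a, Sema3c and Sema3e moved up, to 0.45, 0.11, -0.70 and 0.55. Since the filter keeps a gene that is high in either group, these counts describe the 18 and not all 31 members.

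**Figure D1:**
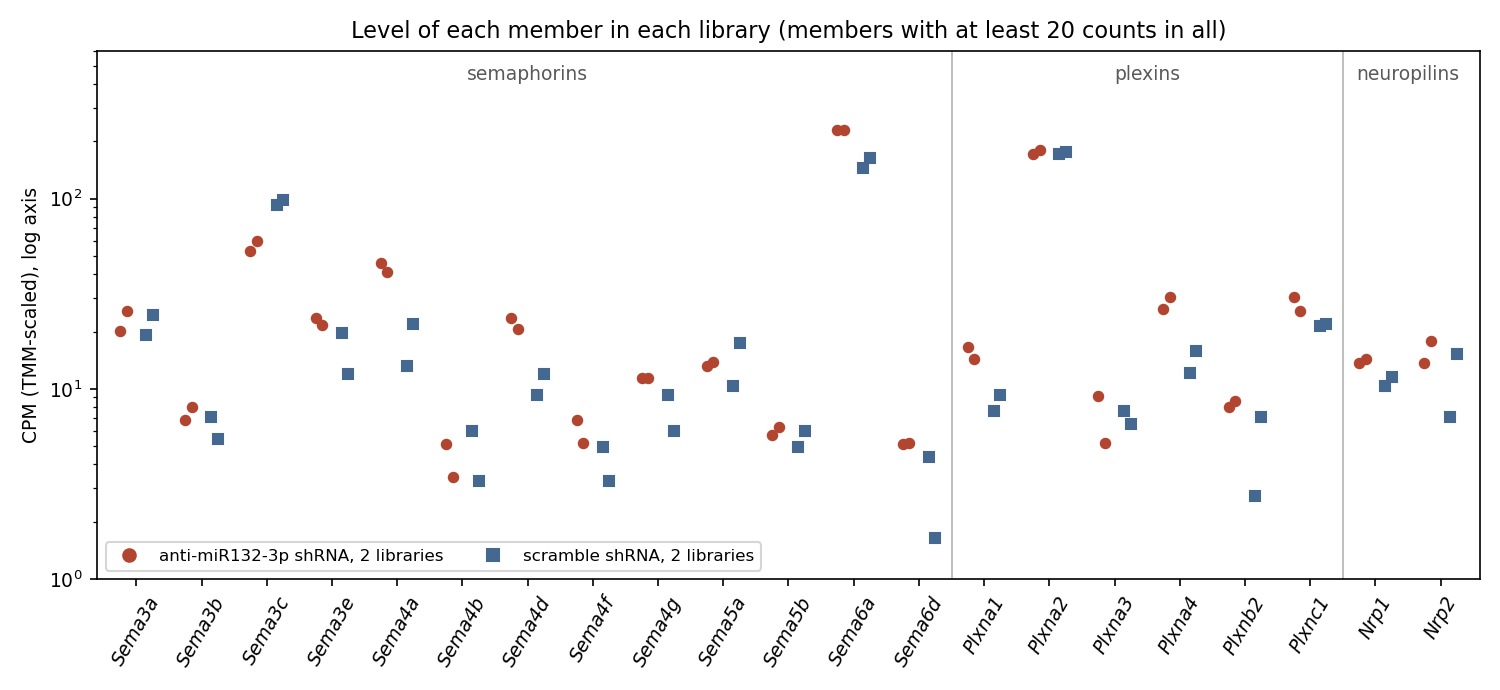
CPM of each member with at least 20 counts in all, on a log axis, with a point for each library. The anti-miR132-3p points of Sema4a, Sema4d, Sema6a, Plxna1 and Plxna4 lie above the scramble points, and those of Sema3c below.

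Levels between genes were compared as CPM per kb of the longest annotated transcript. Sema6a, a transmembrane ligand of Plxna2 and Plxna4, led the ligands in each group, at 33.5 CPM per kb (exact 95% interval 31.2 to 35.9) against 22.4 CPM per kb (20.6 to 24.4) with the scramble shRNA. The next places differed between the groups. With the anti-miR132-3p shRNA Sema4a followed at 13.6 CPM per kb and Sema3c at 10.3 CPM per kb, with intervals that overlap, whereas with the scramble shRNA Sema3c stood at 17.4 CPM per kb and Sema4a at 5.46 CPM per kb, with intervals that do not. Below these, Sema4d, Sema3a and Sema3e stood at 3.30 to 4.92 CPM per kb against 2.31 to 3.69 CPM per kb, and neighbours in that order did not differ beyond counting error. Among the receptors Plxna2 led in each group, at 15.97 CPM per kb against 15.7 CPM per kb. Nrp1 and Plxnc1 came next, at 3.85 and 3.84 CPM per kb against 3.00 and 2.96 CPM per kb, and their order was within counting error. Plxnd1 and Plxnb1 were near the limit of detection, at 0.25 and 0.17 CPM per kb against 0.16 and 0.19 CPM per kb, and Plxnb3 had 0 counts in all 4 libraries.

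**Figure D2:**
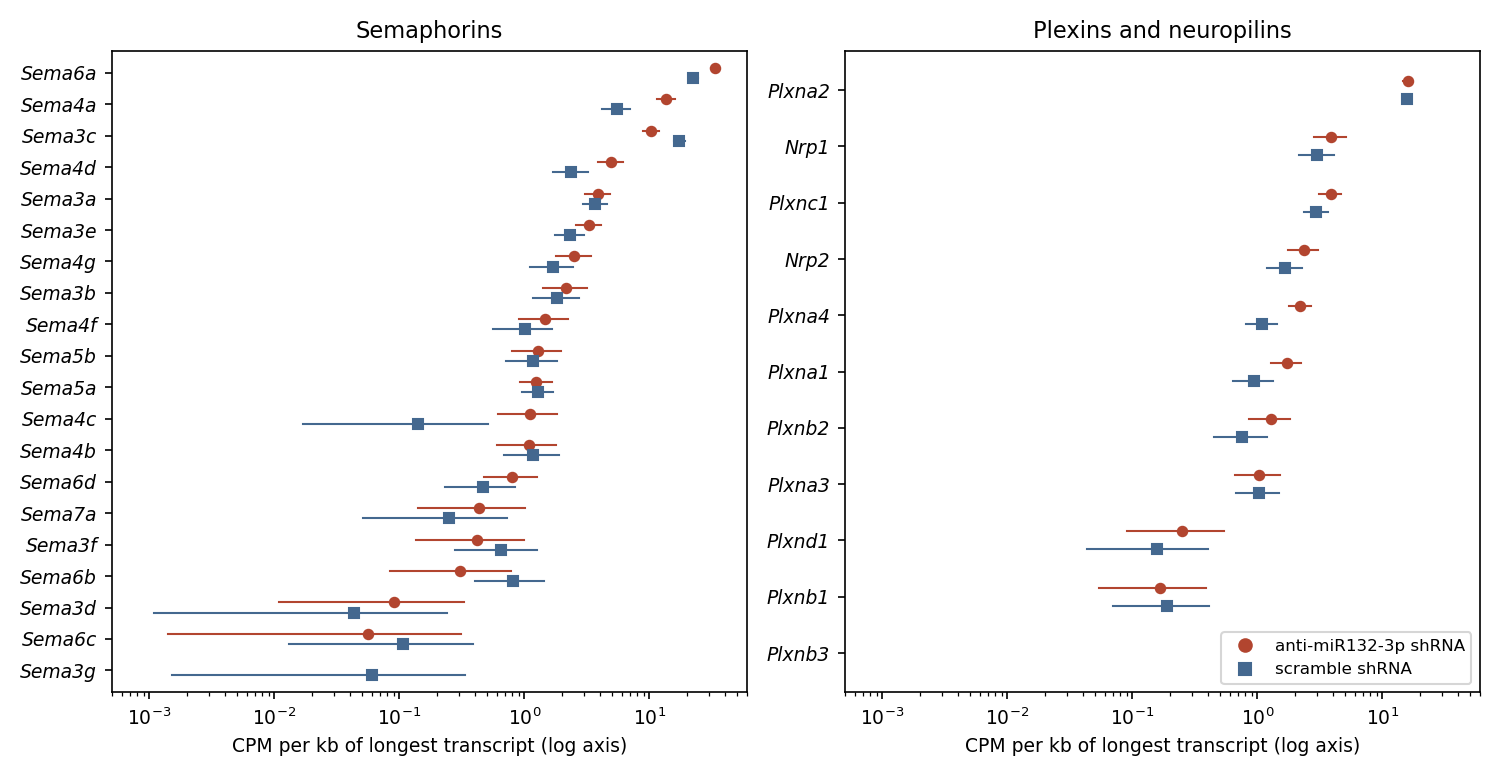
CPM per kb of the longest annotated transcript for each semaphorin (left) and each plexin and neuropilin (right), on log axes, with exact 95% counting intervals, ordered by the level with the anti-miR132-3p shRNA. Groups with 0 counts have no point, and Sema6a and Plxna2 stand apart at the top of each panel.

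The secreted class 3 semaphorins were lower in sum and were carried by Sema3c. The 7 genes summed to 106 and 117 CPM in the anti-miR132-3p libraries, against 140 and 144 CPM in the scramble libraries, a fold of 0.79 (0.69 to 0.90). Sema3c (ENSMUSG00000028780.14), a ligand that signals through either neuropilin and is known for its part in heart and vessel development, had 93 and 105 counts in the anti-miR132-3p libraries, against 169 and 180 counts in the scramble libraries. The groups did not overlap, and Sema3c was 1.68-fold lower (1.41 to 2.01), with an edgeR adjusted p of 0.000228. It made up 12.3% of all semaphorin counts (10.7% to 14.0%, Clopper-Pearson) against 25.9% (23.6% to 28.4%). Without Sema3c the class had no called member. Its other tested members, Sema3a, Sema3b and Sema3e, had folds of 1.05, 1.18 and 1.43.

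Sema3a, the classic growth cone collapse signal, had 35 and 45 counts in each group, so that its fold was 1.05 (0.758 to 1.45). The interval leaves room for a level from 1.32-fold lower to 1.45-fold higher. Sema3e, which binds Plxnd1 without a neuropilin, had 41 and 38 counts against 36 and 22 counts, and the groups did not overlap. Its fold was 1.43 (1.003 to 2.04), an interval that barely excludes 1, and Sema3e was not called (edgeR adjusted p = 0.16). Sema3b, another secreted ligand, had 12 and 14 counts against 13 and 10 counts, and the groups overlapped. Sema3f, a ligand of Nrp2, had 5 counts against 8 in all, Sema3d had 2 against 1 and Sema3g had 0 against 1. These last members were too low for a change to be detectable at this depth.

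The class 4 semaphorins, membrane ligands of B-type plexins that are also known from immune cells, were higher in sum. Together the 6 genes reached 99.5 and 83.6 CPM in the anti-miR132-3p libraries, against 43.8 and 46.4 CPM in the scramble libraries, 2.03-fold higher (1.68 to 2.47). Sema4a (ENSMUSG00000028064.18), a ligand that acts in T cells and whose loss in mice leads to photoreceptor degeneration, had 80 and 72 counts against 24 and 40 counts. The groups did not overlap and Sema4a was 2.49-fold higher (1.85 to 3.38, edgeR adjusted p = 0.000392). Sema4d (ENSMUSG00000021451.17), known as CD100 and the main ligand of Plxnb1, had 41 and 36 counts against 17 and 22 counts. It was 2.07-fold higher (1.39 to 3.12, edgeR adjusted p = 0.00874), a call that DESeq2 did not make (adjusted p = 0.17). Microglia and leukocyte markers were at 103 and 117 CPM against 66.2 and 58.4 CPM in the same libraries, and their part in these values was not tested.

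The other class 4 members were low. Sema4g, with an 8mer seed match, had 20 and 20 counts against 17 and 11 counts, a fold of 1.5 (0.900 to 2.52), and was not called (edgeR adjusted p = 0.22). Sema4c, a ligand of Plxnb2, had 12 and 3 counts against 2 and 0 counts. Its fold of 7.85 (1.83 to 70.8) rests on 17 counts in all, mostly from 1 library, and it was not tested. Sema4f had 12 and 9 counts against 9 and 6, and Sema4b had 9 and 6 against 11 and 6. The intervals of both folds held 1.

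The class 5 semaphorins were at like levels in both groups. Sema5a and Sema5b, transmembrane ligands of Plxna1 and Plxna3 that keep neurites inside the inner plexiform layer of the developing mouse retina, together had a fold of 1.00 (0.71 to 1.42). Sema5a had 23 and 24 counts against 19 and 32 counts, and Sema5b had 10 and 11 counts against 9 and 11 counts. The groups overlapped for both genes, each of which carries a seed match.

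Sema6a was the most abundant member and accounts for nearly all of class 6. Sema6a (ENSMUSG00000019647.18) had 403 and 400 counts in the anti-miR132-3p libraries, against 264 and 299 counts in the scramble libraries. The groups did not overlap, and Sema6a was 1.49-fold higher (1.34 to 1.67), with an edgeR adjusted p of 3.8e-05. Its share of all semaphorin counts was 49.9% (47.4% to 52.4%) against 41.8% (39.2% to 44.5%). It was the called member with a seed match, a 7mer-m8. Sema6d, which takes part in guiding ganglion cell axons at the mouse optic chiasm, had 9 and 9 counts against 8 and 3 counts, with an interval of its fold from 0.766 to 4.01. Sema6b had 4 counts against 11 in all and Sema6c 1 against 2. Sema7a, a membrane-anchored ligand of Plxnc1 and integrins, had 5 counts against 3.

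Summed over all 20 genes, the semaphorins were at 463 and 458 CPM against 352 and 384 CPM, 1.25-fold higher (1.16 to 1.35). Without Sema6a the fold was 1.08 (0.98 to 1.19). The sum therefore rested on Sema6a, with Sema3c called lower, and Sema4a and Sema4d called higher, beneath it.

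**Figure D3:**
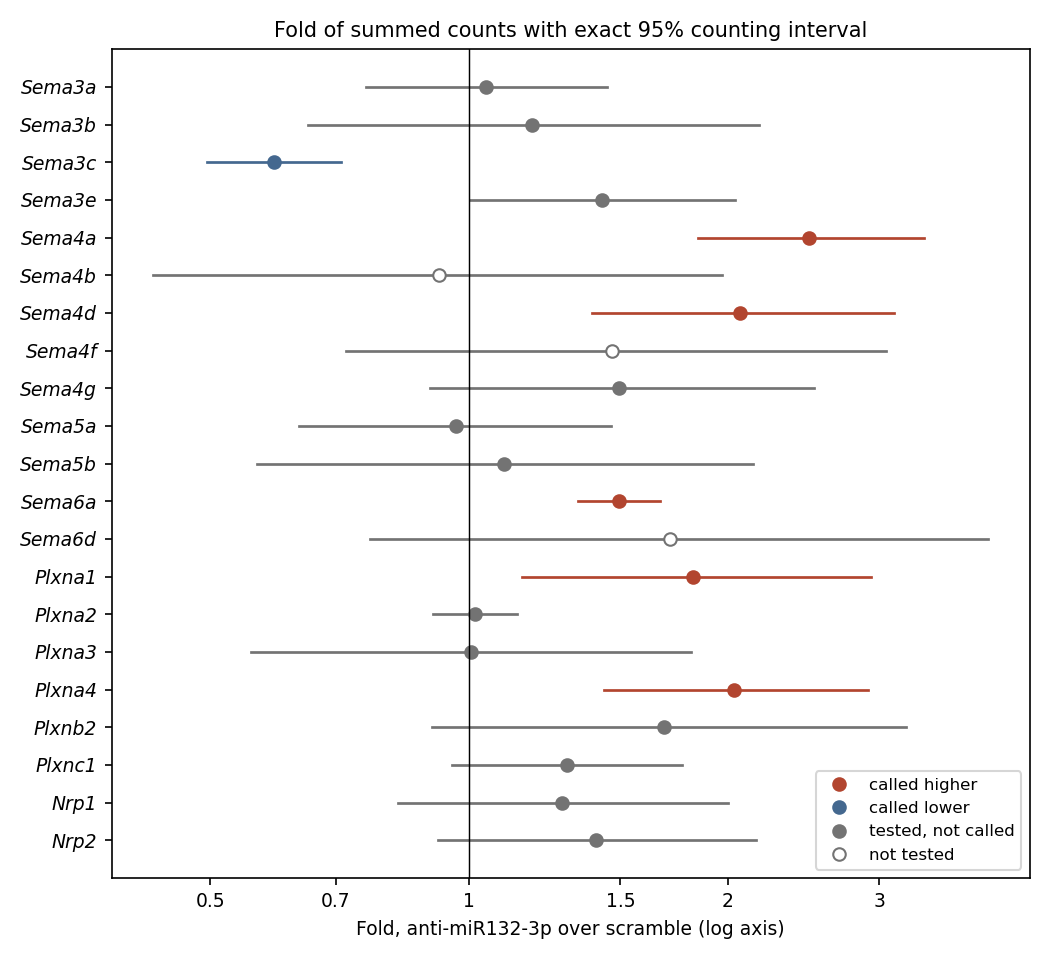
Fold of summed counts, anti-miR132-3p over scramble, with exact 95% counting intervals on a log axis, for the 21 members with at least 20 counts. Filled points were tested, and the colour marks the call by edgeR's quasi-likelihood test. Sema3c is the point called on the lower side.

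The A-type plexins, which pair with neuropilins for class 3 ligands and bind class 6 ligands directly, differed among themselves. Plxna2, the most abundant receptor, had 301 and 315 counts in the anti-miR132-3p libraries, against 313 and 321 counts in the scramble libraries. Its fold was 1.02 (0.909 to 1.14), so that counting error leaves room for at most a 1.14-fold higher level. Plxna4 (ENSMUSG00000029765.13), a receptor for Sema3a and for Sema6a, had 46 and 53 counts against 22 and 29 counts. The groups did not overlap, and Plxna4 was 2.03-fold higher (1.44 to 2.91, edgeR adjusted p = 0.00502), but was not called by DESeq2 (adjusted p = 0.11). Its antisense genes had 9 counts in all, and without a stated strand setting reads of both strands cannot be told apart. Plxna1 (ENSMUSG00000030084.13), which receives Sema3a and Sema6d signals, had 29 and 25 counts against 14 and 17 counts. It was 1.82-fold higher (1.15 to 2.94, edgeR adjusted p = 0.0429). With a correction for GC content and transcript length its log2 fold change was 0.47, against 0.86 without it, and it was no longer called (edgeR adjusted p = 0.31). DESeq2 (adjusted p = 0.41) and limma-voom (adjusted p = 0.051) did not call it either. Plxna3, a receptor for Sema3f, had 16 and 9 counts against 14 and 12 counts, and the groups overlapped.

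The other plexins were not called. Plxnc1, the receptor of Sema7a, had 53 and 45 counts against 39 and 40 counts, a fold of 1.3 (0.956 to 1.77), and its libraries did not overlap. Plxnb2, a receptor for Sema4c and Sema4g, had 14 and 15 counts against 5 and 13 counts, a fold of 1.69 (0.906 to 3.23). Its log2 fold change was 0.75, and was 0.22 without scramble replicate 1 and 1.57 without scramble replicate 2. Plxnb1, the receptor of Sema4d, had 5 counts against 6 in all, and Plxnd1, the receptor of Sema3e, had 6 against 4. For Plxnb3, with 0 counts, the exact 95% interval reached up to 0.17 CPM per kb with the anti-miR132-3p shRNA and 0.16 CPM per kb with the scramble shRNA. All 9 plexins summed to 266 and 267 CPM against 226 and 238 CPM, 1.15-fold higher (1.05 to 1.26), and without Plxna2 they were 1.54-fold higher (1.29 to 1.84). Plxna2 thus held 66.1% of plexin counts (63.0% to 69.1%) against 74.7% (71.6% to 77.6%).

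The neuropilins, which bind class 3 semaphorins and also act as receptors for vascular growth factors, were not called. Nrp1, the binding partner of Sema3a, had 24 and 25 counts against 19 and 21 counts, a fold of 1.28 (0.828 to 2.00). Nrp2, the binding partner of Sema3f, had 24 and 31 counts against 13 and 28 counts, a fold of 1.40 (0.921 to 2.16). The edgeR adjusted p was 0.38 for Nrp1 and 0.30 for Nrp2. The log2 fold change of Nrp2 was 0.49, and was 0.036 without scramble replicate 1 and 1.13 without scramble replicate 2. The groups overlapped for Nrp2 and not for Nrp1. Together they were at 27.5 and 32.1 CPM against 17.5 and 26.7 CPM, a fold of 1.34 (0.996 to 1.82), and the libraries did not overlap.

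**Figure D4:**
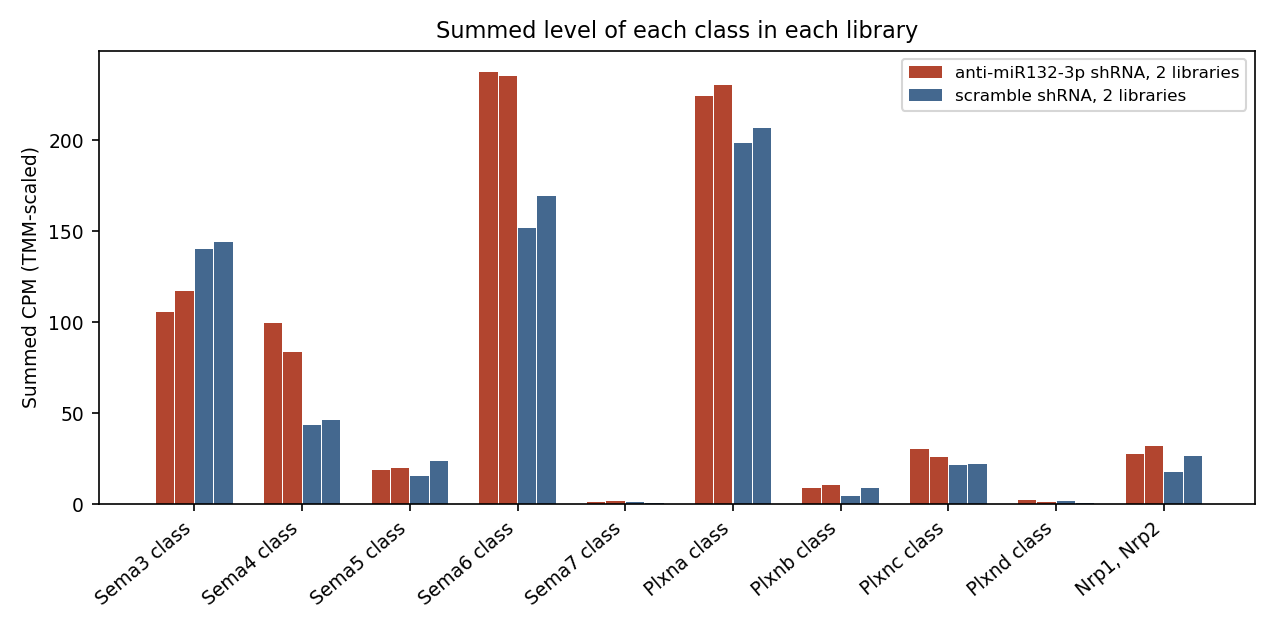
Summed CPM of each class in each library, with a bar per library. Class 3 semaphorins stand lower with the anti-miR132-3p shRNA (106 and 117 CPM against 140 and 144 CPM), and class 4 and class 6 semaphorins stand higher.

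Set beside their textbook receptors, the called ligands fell into different situations. Sema6a and its receptors Plxna2 and Plxna4 were all well above the limit of detection in each group, and of these Sema6a and Plxna4 were called higher while Plxna2 was not called. Sema4a and Sema4d were called higher, while Plxnb1, a receptor of Sema4d, and Plxnd1, a receptor of Sema4a, had no more than 6 counts in either group. Plxnb2, another known receptor of Sema4d, had 29 counts against 18. Cd72, on the co-receptor list used below and named after its value was seen, had 19 counts against 5 and was not tested. Sema3c was called lower, and of its receptors Nrp1 and Nrp2 were not called and Plxnd1 had 6 counts against 4. RNA counts in sorted cells do not show whether ligand and receptor meet, since ligands may also come from other cells of the retina and nerve.

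Genes that act beside or below the receptors, taken from a list of 60, changed in both directions. Calls were made for 11 of 47 tested on the higher side and 6 on the lower, beside 13.5% and 10.4% of all tested genes, and their median log2 fold change was -0.02. Of 8 tested co-receptors, which join the receptor complex, 5 were called higher and 0 lower. Itgb1, an integrin subunit chosen here after its value was seen, had 215 counts against 289, a fold of 0.779 (0.650 to 0.933), and was not called (edgeR adjusted p = 0.056). L1cam, an adhesion molecule that pairs with Nrp1 for Sema3a, was at 119 against 71.6 CPM, 1.66-fold higher (1.42 to 1.94). Chl1, its close relative, was 1.71-fold higher (1.26 to 2.33), and Cntn2, another axonal adhesion molecule, was 1.94-fold higher (1.27 to 3.02). Met, a receptor tyrosine kinase that associates with B-type plexins, had 30 counts against 11, a fold of 2.86 (1.39 to 6.32). The fifth was Nrcam, an adhesion molecule that pairs with Nrp2, at 273 against 182 CPM.

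Of 9 tested genes for CRMP and MICAL proteins, which relay plexin signals to microtubules and actin, 2 were called higher and 0 lower. Beside this and the counts below stand 13.5% of all tested genes called higher and 10.4% lower. With so few genes in each list, the counts only describe those genes. Dpysl4 was at 193 against 85.3 CPM, 2.26-fold higher (1.98 to 2.60), and Crmp1 was 1.37-fold higher (1.26 to 1.49). Of 19 tested GEFs, GAPs and small GTPases, 3 were called in each direction. Farp1 and Farp2, exchange factors that work with A-type plexins, were 2.13-fold (1.62 to 2.83) and 2.13-fold (1.31 to 3.56) higher, and Arhgap35, a GTPase-activating protein, was 1.75-fold higher (1.39 to 2.22). Rac1, a small GTPase of the growth cone, was 1.42-fold lower (1.17 to 1.73). The others called lower were Rhoa, 1.42-fold (1.23 to 1.63), and Cfl1, 1.07-fold (1.02 to 1.12). Of 11 tested kinases, 1 was called higher and 3 lower. Limk2, which phosphorylates cofilin, was 1.46-fold higher (1.23 to 1.75), whereas Rock2, a kinase that acts on the actin cytoskeleton, was 1.54-fold lower (1.23 to 1.92). Gsk3b and Pak1, kinases used in Sema3a signalling, were 1.25-fold (1.19 to 1.31) and 1.21-fold (1.08 to 1.35) lower.

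Promoters of the members were searched on both strands for sites of interferon and CREB factors. Interferon-induced genes were at a summed 1578 against 459 CPM in these libraries, and the part of that difference in the members' values was not tested. RefSeq promoters (GRCm38.p6, 250 bases before to 50 bases after the start) were available for 26 members. The ISRE core, a pair of GAAA stretches with NN between them, was found in those of Plxnc1 and Sema6b, 7.69% of the 26, beside 3.99% of all 27025 genes with a promoter. The GAS motif, TTCNNNGAA, was found for Sema3e, beside 9.55% of all genes, and the CRE, TGACGTCA, for 0 members, beside 2.03%. No called member with a promoter in the table, Sema3c, Sema4a and Sema4d, held any of these letters in this window.

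These calls rest on the spread between libraries that differ by sampling noise alone. Leaving out any 1 library left a group with 1 library. The 6 calls did not hold in those fits, for which only effect sizes are given here. The log2 fold changes then ranged from 0.49 to 0.66 for Sema6a, 0.99 to 1.72 for Sema4a, 0.87 to 1.23 for Sema4d, 0.73 to 1.00 for Plxna1, 0.83 to 1.22 for Plxna4 and -0.84 to -0.66 for Sema3c. An assumed coefficient of variation of 0.2 between pools also ended the 6 calls.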

How the data were processed

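Counts per gene are whole numbers as deposited by the authors for 4 libraries. Per the submitters' processing notes, the build was GRCm39 and the tools named were HISAT2 2.2.1, Trimmomatic 0.39, Cuffdiff, Cuffnorm, Cufflinks and SAMtools 1.10. How reads were counted, with which annotation and strand, is not given in the sources used here. Reads of a member and of an overlapping gene on the other strand cannot be told apart. The 7 genes that share exon bases with members in GENCODE M21 had 0 or 1 counts. Those exons are of the older build GRCm38, and identifiers without an M21 name were not checked for overlap. Columns named mCherry were taken as the scramble shRNA by exclusion, and every direction rests on that.

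The 2 libraries of a group were counted as 1 sample. Symbols came from GENCODE M21, which named 51486 identifiers. M21 is of an older build (GRCm38) and gave transcript lengths, GC content, 3' UTR sequences and the exon overlaps of members. Coordinates of members are not printed. Genes passing filterByExpr (11427) were tested with edgeR 4.0.16 (TMM, glmQLFit, glmQLFTest, legacy set to FALSE) in R 4.3.3, with Benjamini-Hochberg adjustment over all of them; simulated data were used to test the script. Intervals are exact conditional binomial (Clopper-Pearson) or, for levels, exact Poisson, at 95%. Alternatives used DESeq2 1.42.0, limma 3.58.1, other scalings and filters, a replicate block, left-out libraries, summed pairs and a GC and length correction by splines with 4 degrees of freedom. Replicate numbers did not pair the libraries (r = 0.01 for deviations from group means). All members were accounted for; pathway genes named were the called ones with the largest change, up to 4 per group of the list. Nrcam was named after its value was seen. The members, lists and tests were chosen with earlier results of these data known.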

Additional observations from a re-analysis of the deposited data

How the results depend on the processing

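Of the members, 5 were called higher and 1 lower. Scaling by RLE or library totals, limma-voom (4 and 1), a minimum of 20 CPM (4 and 1, with 9 members left to test), the GC and length correction (4 and 1), a 1.5-fold minimum (4 and 1) and the exact counting interval, added after seeing the data (6 and 1), stayed within 1.5 times. By the exact interval, Sema3e was the added member on the higher side. DESeq2 called 2 higher (Sema4a and Sema6a, not Sema4d, Plxna1 or Plxna4), with 6 and 2 pathway genes and 477 and 276 of all genes. With pairs summed and a coefficient of variation of 0.1, the members' counts were 2 and 0, with 3 and 0 pathway genes and 415 and 47 of all genes. Sema4a and Plxna4 stayed called there, and Sema4d (adjusted p = 0.064), Sema6a (0.12), Sema3c (0.051) and Plxna1 (0.25) did not. At 0.2 the values were 0 and 0, 0 and 0, and 43 and 6. Without a low-count filter they were 0 and 0, 0 and 0, and 1 and 2, with 6 members and 5192 genes at an unadjusted p under 0.05. Leaving out 1 library gave 0 to 0 in each of these counts by edgeR, against 11 and 6 pathway genes and 1540 and 1183 of all genes with all libraries. The 1.5-fold minimum left 1 pathway gene lower, and 969 and 268 of all genes. The causes were not tested beyond the fewer libraries or the assumed variation. The replicate block kept the members' counts at 5 and 1 and changed no member's call.

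The fold of summed semaphorins was 1.08 without Sema6a, and that of plexins 1.54 without Plxna2. Leaving out 1 library gave 1.20 to 1.31 for semaphorins, 1.12 to 1.18 for plexins and 1.11 to 1.7 for neuropilins. Directions that turned belonged to members that were not called. With the GC and length correction the log2 fold change was -0.12 for Plxna2, -0.30 for Plxna3, -0.043 for Sema3b and -0.28 for Sema5b, and with limma-voom -0.038 for Plxna3. Leaving out a library gave lowest and highest values of -0.0078 and 0.060 for Plxna2, -0.46 and 0.36 for Plxna3, -0.13 and 0.25 for Sema3a, -0.38 and 0.36 for Sema5a and -0.0051 and 0.28 for Sema5b. For the 10 members with under 20 counts, depth limits any statement.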
